A study of Mus musculus with 112 samples.

Results

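RNA-seq of mouse embryonic stem cells (ESCs) that lack RCOR1 was examined before and after 6 days of embryoid body (EB) differentiation. The members were all libraries labelled as RCOR1 KO naive ESCs or RCOR1 KO EBs, 4 of each, which made 8 of the 112 libraries of the series. ESCs were of the V6.5 line, a hybrid mouse line, grown without serum in N2B27 medium with LIF and inhibitors of MEK and GSK3 (2i). For EBs, the cells were hung in drops of 28 µL in medium with 15% serum for 6 days, so the EB and ESC groups differed in medium, 3-dimensional growth and time. The RCOR1 KO cells carried a CRISPR/Cas9 deletion in Rcor1 and no other engineered allele. WT libraries (8 of ESCs and 7 of EBs) came from V6.5 cells with no engineered allele, and RCOR1/2 DKO libraries (4 of ESCs and 4 of EBs) from cells with deletions in both Rcor1 and Rcor2. The methods name fewer independent clones per experiment than the 4 libraries of each RCOR1 KO state, so some libraries may share a clone. The labels do not say which library came from which clone or culture. The p-values therefore measure the spread between these libraries, and n = 4 counts libraries and not independent clones.

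RCOR1 is a scaffold of the CoREST complex. It holds the histone demethylase LSD1 (gene Kdm1a) and the deacetylases HDAC1 and HDAC2 together and brings them to nucleosomes, where the complex removes active marks from histone H3. RCOR2 and RCOR3 are its paralogs. EBs are aggregates in which ESCs leave the naive state and form mixtures of epiblast, mesoderm, endoderm and other early tissues. Each library holds RNA of a whole aggregate or culture, so fewer cells of a type and less RNA per cell cannot be told apart.

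The targeted gene was low in every RCOR1 KO library. Rcor1 (chr12:112277577-112354113, plus strand, mm9) was at 7.57, 5.14, 11.8 and 7.23 CPM (counts per gene scaled to the same total in every library) in the 4 ESC libraries and at 11.7, 7.11, 18.6 and 8.74 CPM in the 4 EB libraries. In WT cells it ranged from 48.2 to 61.2 CPM (median 54.5) in ESCs and from 66.4 to 84.4 CPM (median 77) in EBs, so no RCOR1 KO library reached the WT range. The deposited table gives a single value per gene, and counts from exons outside the deleted segment are part of it. Rcor2, the paralog, was at 123, 142, 118 and 128 CPM in RCOR1 KO ESCs and at 147, 113, 109 and 124 CPM in EBs. These Rcor2 levels overlapped between the states (log2 fold change -0.05 ± 0.10 SE, edgeR adjusted p = 0.651). On the scale of the 6 groups compared below, Rcor2 was at 90 to 111 CPM in WT ESCs and higher, at 121 to 143 CPM, in RCOR1 KO ESCs. In EBs it was at 116 to 141 CPM in WT and 107 to 146 CPM in RCOR1 KO. Whether Rcor2 differed between these genotypes within a state was not tested. Rcor3 was at 10.9, 10.5, 9.06 and 11.8 CPM in ESCs and at 20.9, 18.3, 21.4 and 18.3 CPM in EBs. All EB libraries exceeded all ESC libraries for Rcor3, with a log2 fold change of 0.90 ± 0.12 (adjusted p = 4.48e-05), which was short of the 2-fold threshold used below. Kdm1a was at 233 ± 13.6 CPM (SD, n = 4) in ESCs and 197 ± 17.2 CPM in EBs (log2 fold change -0.24, adjusted p = 0.0185). Per kilobase of exon, Rcor2 stood at 44.8 RPKM (CPM divided by the exon length in kilobases) in ESCs, Rcor3 at 2.39 RPKM and the remaining Rcor1 signal at 1.40 RPKM.

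The marker of naive ESCs and the marker of early heart mesoderm moved in opposite directions. Esrrb (chr12:87702067-87862578, plus strand), a nuclear receptor of the naive state, was at 545, 551, 543 and 593 CPM in the ESC libraries and at 3.59, 6.03, 1.17 and 10.4 CPM in the EB libraries. It fell 105-fold (log2 fold change -6.71 ± 0.54, edgeR adjusted p = 2.32e-06). Hand2 (chr8:59799780-59803314, plus strand), a transcription factor of heart and limb mesoderm, was at 0.267, 0.332, 0.0559 and 0.116 CPM in ESCs and at 81.5, 29.0, 101 and 49.2 CPM in EBs. It rose 330-fold (log2 fold change 8.37 ± 0.56, adjusted p = 7.38e-07). For both genes the groups were far apart, while the EB libraries differed among themselves by several fold.

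**Figure D1:**
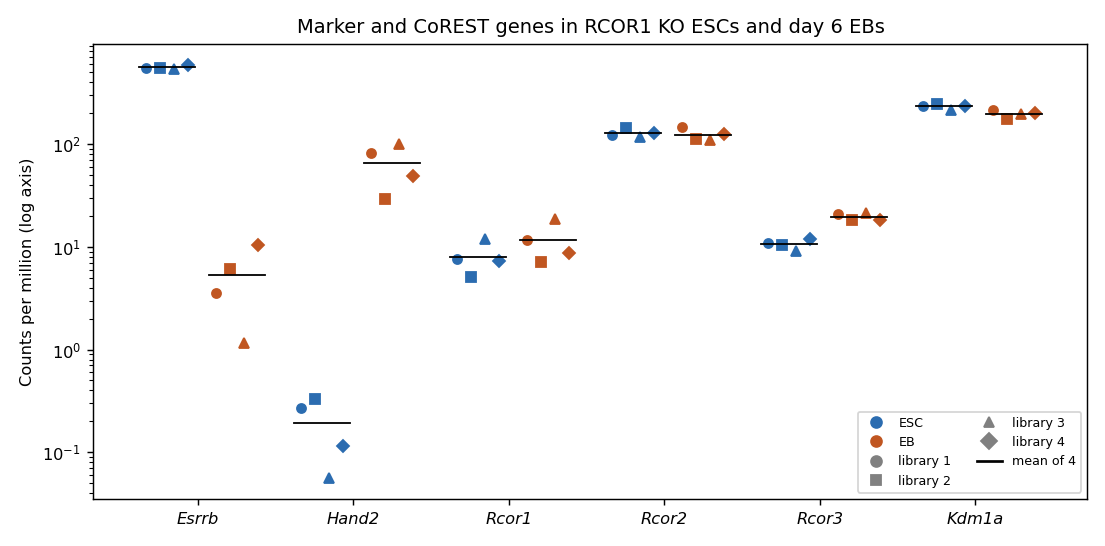
Levels of Esrrb, Hand2, Rcor1, Rcor2, Rcor3 and Kdm1a in the 4 RCOR1 KO ESC libraries (blue) and the 4 RCOR1 KO EB libraries (orange), in CPM on a log axis; the symbol gives the library number and the black bar the mean of 4. The fitted fold changes of Esrrb and Hand2 are over 100-fold in opposite directions, with the nearest libraries of the 2 states closer than that, whereas Rcor2 and Kdm1a levels overlap between ESCs and EBs.

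Promoters of a few genes that moved are shown as examples. The genes and motifs were picked by hand, and promoters of other called genes are not shown. Motif shares of genes that rose and genes that fell were not compared. The sequences are the 250 bases before the RefSeq start of each gene (GRCm38.p6, written 5′ to 3′ along the gene). Capitals mark the octamer core bound by OCT4 (ATGCAAA or TTTGCAT) in the genes Nanog and Zfp42, which fell, and a GATA motif (AGATAA or TTATCT) in Hand2, which rose.
Nanog, chr6:122707239-122707488, plus strand: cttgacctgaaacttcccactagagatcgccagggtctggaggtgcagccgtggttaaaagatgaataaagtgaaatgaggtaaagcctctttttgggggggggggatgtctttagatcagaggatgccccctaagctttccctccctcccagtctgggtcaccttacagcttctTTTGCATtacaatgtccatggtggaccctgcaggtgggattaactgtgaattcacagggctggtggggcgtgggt
Zfp42, chr8:43307010-43307259, minus strand: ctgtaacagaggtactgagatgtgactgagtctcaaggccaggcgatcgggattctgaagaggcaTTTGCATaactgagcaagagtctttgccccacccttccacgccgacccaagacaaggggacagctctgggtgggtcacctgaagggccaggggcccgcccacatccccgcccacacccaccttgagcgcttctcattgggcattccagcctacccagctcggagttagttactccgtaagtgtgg
Hand2, chr8:57320733-57320982, plus strand: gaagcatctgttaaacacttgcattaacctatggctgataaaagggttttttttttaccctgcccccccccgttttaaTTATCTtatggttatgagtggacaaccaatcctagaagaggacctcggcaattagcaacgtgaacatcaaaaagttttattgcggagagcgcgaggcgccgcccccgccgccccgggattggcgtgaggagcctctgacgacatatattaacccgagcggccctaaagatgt
The first capital lies at position -75 in Nanog, -185 in Zfp42 and -172 in Hand2, counted from the start. Of 27025 RefSeq promoters of this length, 4.06% held the octamer core and 10.3% the GATA motif on either strand. A match is a description of these letters and not a site of binding.

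Across the genome, 15265 of the 25209 genes in the table had enough counts to be tested. With edgeR's quasi-likelihood test, an adjusted p below 0.01 and a fold above 2, 3371 genes (22.1%) rose and 2329 genes (15.3%) fell from ESCs to EBs, and the median log2 fold change of all genes tested was 0.03. The 22.1% and 15.3% are the shares to set beside each count of a list below. By more than 16-fold, 1010 genes rose and 537 fell. Of the called genes, 154 had no count in any of the 4 ESC libraries and 46 none in any of the 4 EB libraries. For these, only a lower bound of the fold is given, against a floor of 3 counts per library (0.0834 CPM in ESCs and 0.0783 CPM in EBs). The 8 libraries held 35074517 to 40280629 counts, of which the ribosomal precursor Rn45s took 16.2% to 17.58% in ESCs and 8.06% to 12.01% in EBs. The first principal component, which separated ESCs from EBs, held 89.3% of the variance, and log2 CPM of pairs of EB libraries correlated across genes at 0.9698 to 0.9888.

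Among the genes with the largest rises, Frzb, a secreted Wnt antagonist, had no count in the ESC libraries and was at 84.3, 73.1, 73.3 and 65.3 CPM in EBs, at least 888-fold higher. Prrx1, a homeobox factor of mesenchyme, went from 0 in all ESC libraries to 6.53, 17.4, 13.9 and 17.4 CPM (at least 166-fold), and Hand2os1, the noncoding transcript next to Hand2, to 13.8 ± 6.08 CPM (at least 166-fold). EB library 1 was the lowest for Prrx1, whereas library 2 was the lowest for Hand2. Cyp26a1, which degrades retinoic acid, was at 0, 0, 0.0559 and 0 CPM in ESCs and at 59.7, 96.3, 49.6 and 66.8 CPM in EBs (log2 fold change 11.95 ± 0.45, edgeR adjusted p = 1.55e-08). Cer1, a secreted antagonist of Nodal, BMP and Wnt made by anterior endoderm, was at 0, 0, 0.0559 and 0 CPM and then at 16.1, 102, 25.3 and 115 CPM (11.87 ± 1.19, adjusted p = 1.14e-05). Bmp5, a BMP ligand, was at 0.0533, 0, 0.0559 and 0 CPM and then at 115, 64.4, 139 and 62.5 CPM (11.58 ± 0.54, adjusted p = 7.22e-08). Cer1 was thus high in EB libraries 2 and 4 and Bmp5 in 1 and 3. Other genes from 0 in all ESC libraries were Tph1, which makes the first step of serotonin synthesis (at least 163-fold), Ttr, the thyroxine carrier of visceral endoderm and liver (at least 126-fold), Klhl6 (at least 125-fold), Klhl4 (at least 108-fold), Rubie, a noncoding transcript near Bmp4 (at least 100-fold), and Camk1g, a calmodulin kinase (at least 97.4-fold).

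Among the genes with the largest falls was 2210409E12Rik, with a log2 fold change of -10.79 ± 0.38 (edgeR adjusted p = 4.47e-09), from 22.8 to 33.7 CPM in ESCs to at most 0.0515 CPM in EBs. Khdc3, a member of the subcortical maternal complex of the oocyte, was at 36.3, 64.3, 36.6 and 59.6 CPM in ESCs and at 0.222, 0.129, 0.102 and 0.254 CPM in EBs, a fall of 274-fold. Pou2f3, a POU factor, went from 77.6, 62.0, 68.7 and 56.8 CPM to 0.222, 0.490, 0.102 and 0.203 CPM, a fall of 257-fold. Cdx1, a caudal homeobox factor known from the primitive streak, was at 14.6, 17.4, 26.2 and 26.2 CPM in ESCs and at 0.0556, 0.103, 0.203 and 0.102 CPM in EBs (log2 fold change -7.45, adjusted p = 2.6e-08). Each of these genes was under 0.5 CPM in every EB library. The others among the 12 with the largest falls were Myh13, a skeletal muscle myosin (log2 fold change -8.35), Krt42, a keratin (-8.26), Apod, a lipocalin (-8.19), Aoah, a lipase acting on endotoxin (-8.14), Acsbg3 (-8.08), 1700097N02Rik (-7.78), Sycp2l, an oocyte protein of the synaptonemal complex family (-7.54), and Slc6a7, a proline transporter (-7.49).

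Genes of naive pluripotency fell together. Of 17 listed members, all tested, 15 were lower in EBs, none was higher and the median log2 fold change was -5.73, beside 15.3% lower and 0.03 over all genes. The summed level of the list was 5140 to 5420 CPM in the ESC libraries and 158 to 289 CPM in the EB libraries. Fgf4, the FGF that primes ESCs to leave the naive state, fell from 251, 237, 235 and 248 CPM to 1.22, 1.60, 0.254 and 2.64 CPM (169-fold). Tfcp2l1, a factor of the LIF circuit, fell from 1390, 1430, 1290 and 1360 CPM to 23.6, 17.0, 28.6 and 25.4 CPM (log2 fold change -5.85 ± 0.16, edgeR adjusted p = 1.34e-09). Nr0b1, an orphan nuclear receptor of this network, fell from 34.1, 43.4, 47.5 and 47.0 CPM to at most 0.559 CPM (-7.03). Nr5a2 (-5.69), which binds with Esrrb, and the Kruppel-like factors Klf5 (-3.83), Klf4 (-4.76) and Klf2 (-5.24) were lower too. Nanog, chosen here after its values were seen, was at 650, 604, 684 and 584 CPM in ESCs and at 21.9, 39.1, 4.14 and 36.0 CPM in EBs (-4.64 ± 0.58), and Zfp42, chosen likewise, fell by 6.03 on the log2 scale. The members that were not called were Tbx3, at 180, 211, 171 and 178 CPM in ESCs and 199, 63.2, 101 and 82.4 CPM in EBs (-0.73, adjusted p = 0.0511), and Dppa3, a maternal factor that protects DNA methylation, at 5.88 ± 2.01 CPM (SD, n = 4) in ESCs and 2.5 ± 1.98 CPM in EBs (-1.23, adjusted p = 0.0961). Without EB library 1, Tbx3 was called lower (-1.17, adjusted p = 6.11e-05).

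General pluripotency genes, shared by naive and primed cells, split. Of 11 members, 8 fell, 1 rose and the median was -4.11. Pou5f1, which encodes OCT4, fell from 471, 512, 428 and 430 CPM to 12.9, 26.0, 5.54 and 27.2 CPM (log2 fold change -4.68 ± 0.44, edgeR adjusted p = 7.9e-06). In ESCs it was among the most abundant of these factors per length, at 319 RPKM, beside 281 RPKM for Nanog and 121 RPKM for Esrrb. Sox2 (-3.31), Tdgf1, the Nodal coreceptor (-3.92), Gdf3 (-5.47) and Dppa2 (-5.47) also fell. Lin28a, which blocks let-7 maturation, rose from 256, 316, 218 and 270 CPM to 630, 565, 587 and 612 CPM (1.18, adjusted p = 2e-06), and Sall4 (0.22) did not pass the test. Of 11 genes of the formative and primed epiblast, the stage after naive pluripotency, 5 rose and 1 fell. Fgf5, the classical marker of that stage, was at 0, 0.0553, 0.0559 and 0.0578 CPM in ESCs and at 55.2, 57.1, 14.5 and 32.8 CPM in EBs (9.79 ± 0.68, adjusted p = 9.42e-07). Car4, a carbonic anhydrase, was at 0.907, 0.221, 0.447 and 0.463 CPM and then at 176, 126, 91.0 and 93.9 CPM (7.88). Otx2 (4.05), Lef1 (3.26) and Sfrp2 (1.54) rose as well and Foxd3 fell (-3.53), while the de novo methyltransferase genes Dnmt3a (0.56) and Dnmt3b (1.03, adjusted p = 0.0163) were short of a threshold. Dnmt3b was called higher without EB library 3 (1.24, adjusted p = 0.00608), and the count of the list was then 8.

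**Figure D2:**
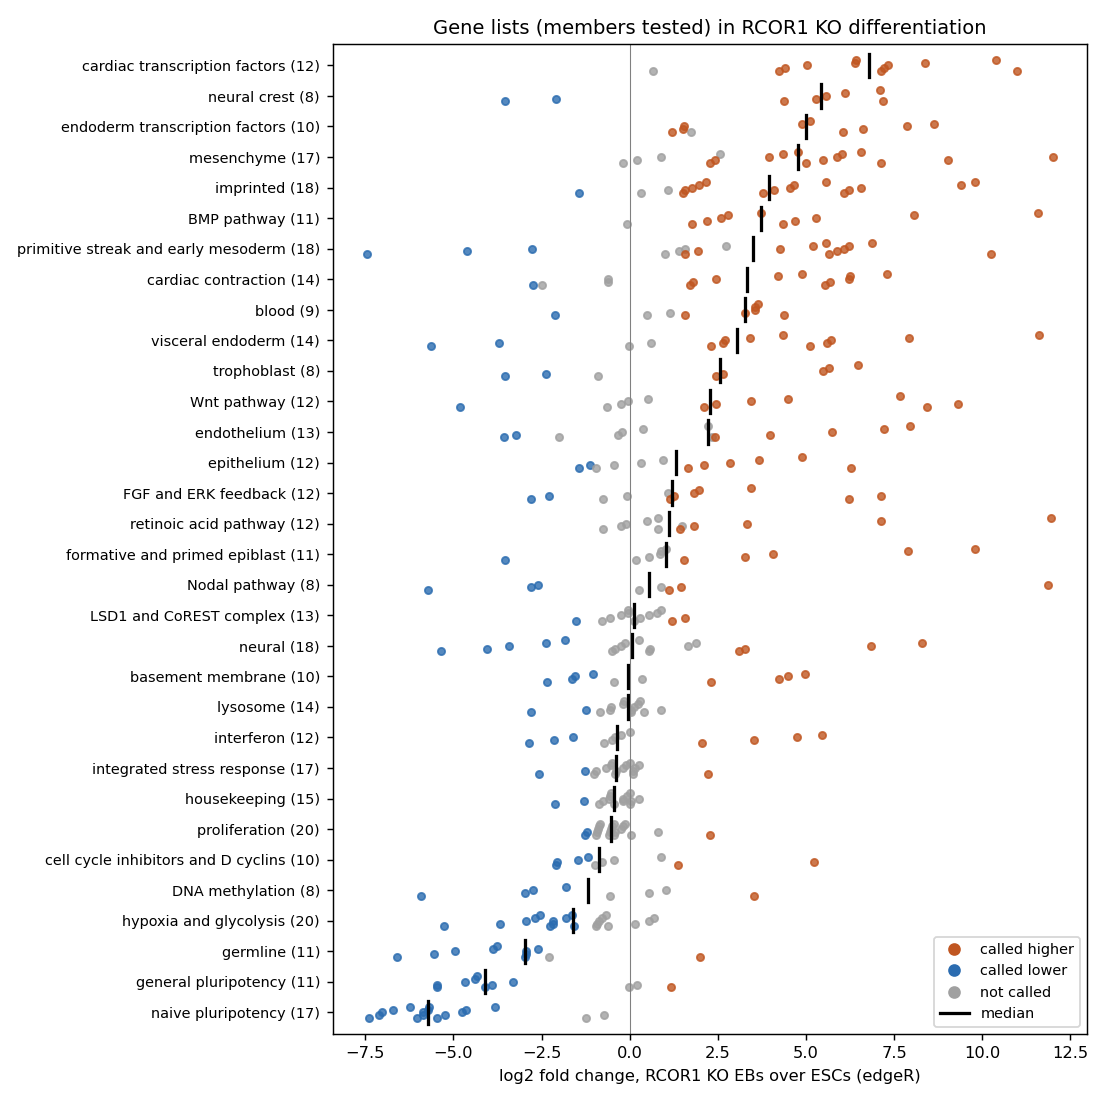
Log2 fold change of RCOR1 KO EBs over ESCs for the members of each gene list that were tested (number in brackets), 1 point per gene; orange points were called higher, blue lower and grey not called, and the black bar is the list's median. Cardiac transcription factors lie highest by median (6.78) and naive pluripotency genes lowest (-5.73), and lists such as neural genes (0.07) scatter on both sides of 0.

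Genes of the primitive streak and early mesoderm were mostly higher in EBs. Of 20 members, 18 were tested, of which 11 rose and 3 fell, with a median of 3.5. Lhx1, a homeobox factor of the organizer and lateral mesoderm, was at 0.107, 0.0553, 0 and 0.0578 CPM in ESCs and at 105, 66.0, 47.3 and 67.3 CPM in EBs (log2 fold change 10.24 ± 0.43, edgeR adjusted p = 3.88e-08). Pdgfra, the receptor of paraxial and other mesoderm (6.86), Wnt3, which starts the streak (5.19), Fgf8 (5.57) and Gsc, an organizer gene (1.95), also rose. Wnt3a (-4.61), Tcf15 (-2.78) and Cdx1 fell, and the 2 members not tested were Cdx4 and Msgn1. Eomes, a T-box factor of mesendoderm, was at 27.0, 26.8, 25.5 and 25.0 CPM in ESCs and at 141, 72.5, 16 and 43.7 CPM in EBs. Its groups overlapped through EB library 3 alone (1.39, adjusted p = 0.032), and without that library it was called higher (1.72, adjusted p = 0.00211).

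Cardiac transcription factors showed the highest median of the lists tested, 6.78, with 11 of 12 members higher and none lower, beside 22.1% higher over all genes. Hand1, the partner of Hand2, was at 0.107, 0, 0.280 and 0 CPM in ESCs and at 316, 78.8, 229 and 186 CPM in EBs (log2 fold change 10.98 ± 0.69, edgeR adjusted p = 4.97e-07). Tbx20 rose from 1.07, 2.21, 0.783 and 1.56 CPM to 300, 106, 236 and 140 CPM (7.12), and Isl1, which marks second heart field progenitors, from 0.427, 0.608, 0.336 and 0.116 CPM to 34, 28.6, 44.9 and 22.8 CPM (6.43). Gata6 (7.32) was also higher, and Smarcd3, a remodelling subunit, was not called (0.66). EB library 2 was the lowest for Hand1, Hand2 and Tbx20. In libraries 2 and 4 alone the call of Hand1 was lost (adjusted p = 0.0575), with 0 counts in those ESC libraries. Genes of contraction followed in smaller amounts: of 16 members, 14 were tested, 10 rose and 1 fell, with a median of 3.33. Myh7, a cardiac myosin, was at 0.107, 0.166, 0.336 and 0.463 CPM in ESCs and at 11.9, 36.5, 74.5 and 45.2 CPM in EBs (7.29 ± 0.67, adjusted p = 6.05e-06). Myl3 (6.21), Tnnc1 (5.67), Tnni1 (4.2) and Actn2 (1.70) rose, and Casq2, the calcium store protein, fell (-2.73). Ttn, the giant sarcomere protein, ran the other way, at 489, 585, 411 and 382 CPM in ESCs and 32.6, 10.9, 262 and 30.1 CPM in EBs. Ttn did not pass the test over all 8 libraries (-2.48, adjusted p = 0.0469) and was called lower without EB library 3 (-4.24, adjusted p = 3.14e-05) and in the fit of 6 groups (-2.52, adjusted p = 0.00187).

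Most endoderm transcription factors rose. Of 10 endoderm factors, 9 rose and none fell (median 5.0). Foxa2, which opens chromatin in endoderm and node, was at 0.213, 0.221, 0.224 and 0.116 CPM in ESCs and at 42.1, 50.1, 39.1 and 54.0 CPM in EBs, a rise of 234-fold with little spread (log2 fold change 7.87 ± 0.20, edgeR adjusted p = 8.89e-10). Sox17 went from 0.8, 0.719, 0.559 and 0.636 CPM to 78.6, 42.5, 24.8 and 33.4 CPM (6.04). Foxa1 (6.62), Cxcr4 (4.88) and Hhex (1.55) rose and Hnf4a did not pass the test (1.75, adjusted p = 0.0414). Of 18 genes of visceral endoderm, the nutritive layer of the early embryo, 14 were tested, 10 rose and 2 fell. Apob (5.6), Dab2 (5.70), Cubn (3.41), Cited1 (2.69) and Rbp4 (2.64) were higher, and Trf (-5.63) and Apoa2 (-3.70) lower. Ttr was at 21.7, 2.24, 16.3 and 1.78 CPM in EBs, high in libraries 1 and 3 and low in 2 and 4. Its call was lost when no filter was applied to low counts (adjusted p = 0.0204), and Alb and Apoc2 had no count in any of the 8 libraries.

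Blood and endothelial genes rose in part and unevenly. Of 14 blood genes, 9 were tested, 6 rose and 1 fell. Tal1, a master factor of blood formation, was at 1.23, 1.30, 0.671 and 1.99 CPM in ESCs and at 10.7, 3.63, 37.3 and 9.05 CPM in EBs (log2 fold change 3.55 ± 0.69, edgeR adjusted p = 0.00106), and without EB library 3 its log2 fold change was 2.59. Gata1 (4.38), Itga2b (3.64), Lmo2 (3.55) and Runx1 (3.26) rose, and Spi1 fell (-2.11). The summed level of the blood list was 7.11 to 9.57 CPM in ESCs and 53.6, 23.1, 133 and 38.5 CPM in EBs. Of 15 endothelial genes, 13 were tested, 5 rose and 2 fell, beside 22.1% higher and 15.3% lower over all genes. Cdh5, the cadherin of endothelial junctions, was at 0.160, 0, 0 and 0 CPM in ESCs and at 5.37, 1.44, 32.6 and 4.52 CPM in EBs (7.94 ± 1.37, adjusted p = 0.00048). Without EB library 3 the log2 fold change of Cdh5 was 6.41. Kdr, the VEGF receptor (7.20), and Flt1 (5.73) rose, whereas Pecam1 (-3.56) and Eng (-3.22), at 108 and 31.1 CPM in ESCs, fell. Tie1 (3.99, adjusted p = 0.00945) and Esam (2.43, adjusted p = 0.00505) were near the threshold. The Tie1 call was lost with no filter, with halved counts and without any single ESC library or EB library 1 or 3 (adjusted p 0.0114 to 0.0244), and the Esam call without ESC library 1, 3 or 4 or EB library 3 (0.0126 to 0.0178). Without EB library 3, Tek was called lower (-1.89). The list then held 3 genes called higher and 4 lower.

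Of 23 neural genes, 18 were tested, 4 rose and 5 fell, beside 22.1% higher and 15.3% lower over all genes, and the median was 0.07. Sox11 (log2 fold change 3.11), Pax3 (8.28), Pax6 (3.26) and Dcx rose, while Tubb3 (-4.04), Stmn2 (-3.42), Olig2 (-5.34), Elavl3 (-2.38) and Nefl (-1.85) fell. Dcx had no count in the ESC libraries and reached only 0.257 to 0.608 CPM in EBs (scaled with the 6 groups compared below). Tubb3, Stmn2 and Nefl, genes of the neuronal cytoskeleton, were thus higher in these naive ESCs than in the EBs. Neurog2, a proneural factor, was at 0.00644 CPM on average in EBs. Of 10 neural crest genes, 8 were tested, 6 rose, among them Ets1 (6.12), Msx1 (7.18), Msx2 (5.57), Snai2 (5.29) and Sox9 (7.11), and Tfap2a (-2.10) and Foxd3 (-3.53) fell. Several of these are also genes of mesoderm, and Sox10, the defining factor of migrating crest, was at 0.168 CPM in ESCs and 0.303 CPM in EBs and was not tested. Of 12 trophoblast genes, 8 were tested, 5 rose and 2 fell: Cdx2 (5.48), Gata3 (5.64), Gata2 (2.64), Krt7 (2.45) and Plac1 (6.47) rose, and Tfap2c (-3.55) and Ascl2 (-2.37) fell. Of the placental genes, Prl3d1 was at 0 CPM and Tpbpa was at most at 0.0127 CPM on average over the libraries of a state.

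Of 19 mesenchyme genes, 17 were tested, 13 rose and none fell (median 4.76). Cdh11 (log2 fold change 9.03), Zeb2 (7.14), Col1a2 (6.56), Cdh2, which replaces E-cadherin in mesoderm (5.48), and Col5a1 (2.41) rose, while the abundant Fn1 (0.20) and Vim (-0.19) were not called. Acta2, smooth muscle actin, was at 0.747, 15.0, 0.503 and 15.0 CPM in ESCs and at 9.31, 36.0, 82.3 and 57.7 CPM in EBs, so its groups overlapped and it was not called (2.57, edgeR adjusted p = 0.0682), whereas the fit of 6 groups called it higher (2.53, adjusted p = 0.00654). Of 12 epithelial genes 6 rose and 2 fell, beside 22.1% higher and 15.3% lower over all genes. Krt18, a keratin of simple epithelium, went from 6.99, 3.65, 8.05 and 6.53 CPM to 504, 512, 473 and 483 CPM (78.1-fold, adjusted p = 1.29e-08), and its partner Krt8 rose by 4.88 on the log2 scale. Cdh1, which encodes E-cadherin, fell from 873 to 397 CPM on average (-1.14). In the basement membrane the collagen chains Col4a1 (4.48) and Col4a2 (4.98) and the laminins Lama4 (4.22) and Lamb1 (2.30) rose, and Lamc1 (-1.54), Nid1 (-2.34), Nid2 (-1.65) and Lama1 (-1.05) fell. The call of Lama1 was lost without EB library 1 (-0.82), without EB library 2 (adjusted p = 0.0241) and in other settings.

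Most listed genes of the BMP pathway rose. Of 12 members, 11 were tested, 10 rose and none fell (median 3.73). The ligands Bmp2 (log2 fold change 8.05), Bmp5 and Bmp7 (2.79), the target Id1 (4.69) and the pseudoreceptor Bambi (2.20) rose, and the inhibitor Smad7 was not called (-0.07). Of 12 Wnt genes, 7 rose and 1 fell. The antagonist Dkk1 was at 0.160, 0.277, 0.112 and 0 CPM in ESCs and at 31.7, 61.1, 46.9 and 56.7 CPM in EBs (8.43, edgeR adjusted p = 1.14e-07), and the ligand Wnt5a (9.32), the coligand Rspo3 (7.68), Nkd1 (3.44) and Wnt11 (2.10) rose. Notum, an extracellular inhibitor, fell (-4.82) and the target Axin2 was not called (-0.25). Nodal itself fell from 45.7, 43.5, 41.9 and 34.9 CPM to 9.20, 5.36, 1.88 and 7.24 CPM (-2.81), and its target Lefty2 from 192, 115, 214 and 121 CPM to 3.64, 4.33, 0.661 and 3.51 CPM (-5.73). Lefty1 fell (-2.59, adjusted p = 0.00165), a call lost when the replicate number was used as a block (adjusted p = 0.013). Acvr2b (1.46), Foxh1 (1.10) and Cer1 rose, and without EB library 1 Foxh1 was at 0.85 and not called.

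FGF and ERK feedback genes were mixed, 7 of 12 higher and 2 lower, beside 22.1% higher and 15.3% lower over all genes. Egr1, an immediate early gene of ERK signalling, was at 0.213, 0.774, 0.391 and 0.173 CPM in ESCs and at 52.0, 50.9, 58.2 and 58.2 CPM in EBs (log2 fold change 7.13, edgeR adjusted p = 2.85e-08). Fgfr2 (6.23), Fgf15 (3.44), Spry1 (1.27) and Fgfr1 (1.13) rose, and Etv5 (-2.81) and Etv4 (-2.28) fell. Of 12 retinoic acid genes, 5 rose and none fell. Besides Cyp26a1 these were Rarb, a receptor and direct target (7.14), Cyp26b1 (3.32), Crabp2 (1.81) and Dhrs3 (1.42), whereas the receptors Rara (-0.77) and Rarg (-0.10) were not called.

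Of 13 genes of the CoREST complex, 10 were not called, beside 37.3% called over all genes. The median was 0.12, and 2 members rose, among them Phf21a (log2 fold change 1.56), and 1 fell, Rest (-1.52), the repressor of neuronal genes. Hdac1 (-0.79) and Hdac2 (-0.05) were short of the fold threshold. Of 8 genes of DNA methylation, 1 rose and 4 fell, beside 22.1% higher and 15.3% lower over all genes. Tet1, which oxidizes methylcytosine, fell from 1190, 1220, 1050 and 1140 CPM to 191, 168, 151 and 177 CPM (-2.74 ± 0.09, edgeR adjusted p = 2.84e-09), and Tet3 rose from 15.8, 25.0, 16.8 and 26.9 CPM to 228, 176, 354 and 215 CPM (3.53). The 2 TET genes thus exchanged ranks: per length, Tet1 was at 80.0 RPKM and Tet3 at 1.8 RPKM in ESCs, and they were at 12.0 and 20.7 RPKM in EBs. Dnmt3l, the cofactor of de novo methylation, fell from 117, 185, 130 and 170 CPM to 2.59, 2.94, 0.610 and 3.89 CPM (-5.91). Tet2 (-2.96) and Uhrf1 (-1.81) fell too. Of 14 germline genes, 11 were tested, 9 fell, among them Hormad1 (-6.59), Dazl (-5.54), Mael (-4.95), Piwil2 (-2.94) and Ddx4 (-2.60), and 1 rose, Tdrd1 (2.00, adjusted p = 0.00431, a call lost without ESC library 2, 3 or 4 or EB library 1, 2 or 4). None of the 10 genes of the cleavage stage embryo had enough counts to be tested.

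Imprinted genes, expressed from a single parental copy, were mostly higher: of 18 members 15 rose and 1 fell, with a median of 3.94. Igf2, the growth factor, was at 1.55, 1.94, 1.68 and 2.26 CPM in ESCs and at 1330, 592, 2150 and 931 CPM in EBs (676-fold, edgeR adjusted p = 1.24e-07). Grb10 (log2 fold change 3.78), Cdkn1c, a CDK inhibitor (4.66), Ndn (4.10) and Sgce (5.58) rose, Impact (0.31) and Phlda2 (1.08, adjusted p = 0.0472) were not called, and Plagl1 fell (-1.44, adjusted p = 0.00989), a call lost with no filter on low counts (adjusted p = 0.0373) and without any single library other than EB libraries 1 and 3 (adjusted p up to 0.0361). H19, the noncoding RNA beside Igf2, was at 3.75, 465, 9.40 and 344 CPM in EBs and at most 0.442 CPM in ESCs (9.79 ± 2.14, adjusted p = 0.00399). EB libraries 2 and 4 were far above libraries 1 and 3 for H19, while libraries 1 and 3 were above 2 and 4 for Igf2. The H19 call was lost with no filter and without any single ESC library (adjusted p = 0.0108 to 0.0134). Of 39 Hox genes, a list added with these data in view, 21 were tested, 13 rose and 6 fell. Over all genes 22.1% rose and 15.3% fell. The order of changes along the Hox clusters was not tested. Hoxb1 (at least 23.6-fold), Hoxb2 (log2 fold change 7.98), Hoxb3 (at least 66.3-fold) and Hoxd1 (5.39), which lie at the 3′ ends of their clusters, rose. Hoxc12 (-7.06), Hoxc13 (-4.11), Hoxc10 (-5.09), Hoxd13 (-1.49) and Hoxb13 (-2.12), from the 5′ ends, fell. The call of Hoxb13 was lost in the fit of 6 groups (adjusted p = 0.0901). On the scale of that fit, Hoxb13 was at 0.529 to 0.648 CPM and Hoxc10 at 0.336 to 0.918 CPM in RCOR1 KO ESCs, both low levels. Hoxd8 (2.8) and Hoxd9 (3.99) had positive log2 fold changes in RCOR1 KO in that fit. Hoxc4, at the 3′ end of its cluster, fell as well (-1.22, adjusted p = 0.00377), a call lost with the replicate number as a block (adjusted p = 0.0182), in the fit of 6 groups and without ESC library 2 or 3 or EB library 2 or 4 (0.0112 to 0.0142).

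Of 20 hypoxia and glycolysis genes, no member rose and 11 fell (median -1.61): Hk1 (log2 fold change -2.68), Bnip3 (-2.18), Pdk1 (-2.17), Aldoa (-1.64) and Pgam1 (-1.58) were lower, while Slc2a3 (0.15) was not called. Of 20 proliferation genes, 17 were not called, E2f1 (-1.28) and Rrm2 (-1.22) fell, and Myc rose (2.27). Among D cyclins, Ccnd2 rose from 4.03, 15.9, 3.58 and 17.4 CPM to 256, 308, 602 and 360 CPM (5.22, edgeR adjusted p = 3.92e-05) and Ccnd1 fell (-1.18). Of 17 genes of the integrated stress response 14 were not called, Vldlr rose (2.21) and Cth (-2.56) and Trib3 (-1.26) fell. Of 14 lysosomal genes, 2 fell, among them Grn (-1.24), and none rose, beside 15.3% lower and 22.1% higher over all genes. Of 16 interferon response genes 12 were tested, 4 rose and 3 fell, with the canonical Isg15 and Ifit1 under the filter. Of 15 housekeeping genes 13 were not called, among them Actb (0.02) and Gapdh (-0.75), and Polr2a (-1.31) and Hprt (-2.11) fell. In the proliferation, integrated stress response, lysosomal and housekeeping lists, no larger share fell than over all genes.

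The EB libraries differed more among themselves than the ESC libraries did. The median SD of a gene's log2 CPM was 0.15 over the ESC libraries and 0.22 over the EB libraries, and 428 genes in EBs, 328 of them called, had an SD above 1, beside 229 in ESCs. The second principal component (2.9% of the variance) placed EB libraries 1 and 3 at 34 and 26.3 and libraries 2 and 4 at -37.2 and -27.2. It split the ESC libraries by the same numbers over a smaller range, with 1 and 3 at 9 and 8.8 and 2 and 4 at -9.2 and -4.5. Bmp5, Ttr and Igf2 were higher in EB libraries 1 and 3, whereas Cer1 and H19 were higher in EB libraries 2 and 4. The summed level of cardiac factors was 1170, 400, 996 and 628 CPM in EB libraries 1 to 4. The summed level of the endothelial list was 360, 150, 419 and 169 CPM. EB library 3 was the highest for Cdh5, Tal1, Ttn and Myh7, and the lowest for Nanog, Pou5f1 and Eomes. Of genes with a mean of at least 5 CPM in 1 state or both, 3 differed by more than 4-fold between libraries 1 and 3 and libraries 2 and 4 in both states, all higher in 2 and 4: Xlr3a, Xlr3c (near-identical copies, whose counts are uncertain) and Eif2s3y. Eif2s3y, a translation factor gene of the Y chromosome, was at 11.6, 48.2, 12.0 and 50 CPM in ESCs and at 9.15, 60.0, 10.9 and 51.4 CPM in EBs. Acta2 in ESCs split the same way. Whether libraries 1 and 3 come from 1 clone and 2 and 4 from another is not given. With the split as a term in the fit, an alternative chosen after seeing the data, 5724 genes were called. With libraries 1 and 3 alone 4683 genes were called and with 2 and 4 alone 5773, of which 4336 and 5155 were among the 5700 called with all libraries.

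**Figure D3:**
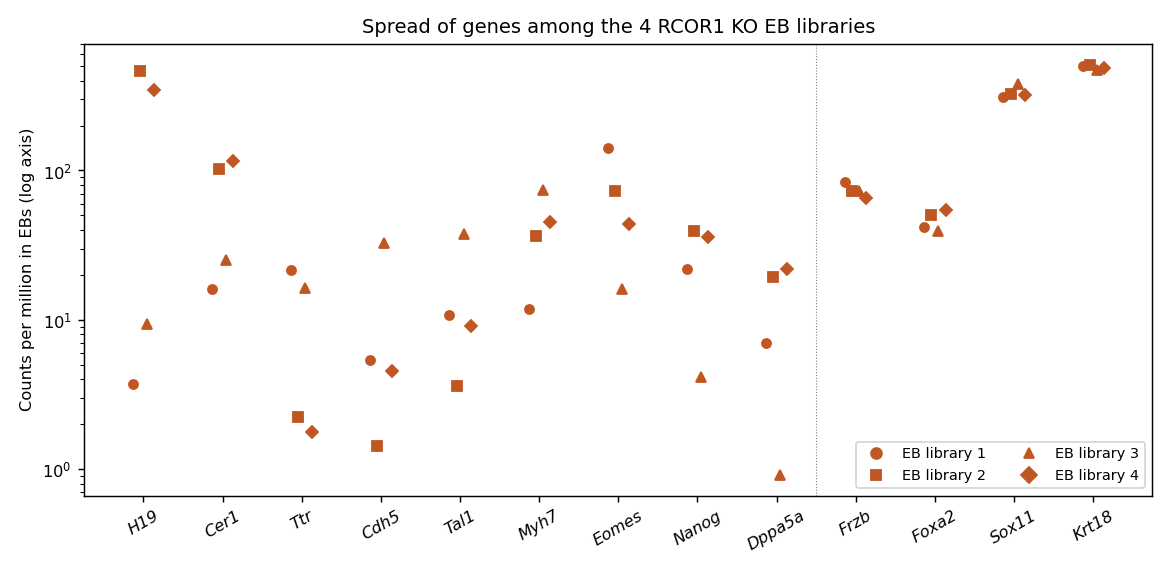
CPM on a log axis in the 4 RCOR1 KO EB libraries (symbol by library) for genes with a wide spread (left of the dotted line) and genes with little spread (right). H19 and Cer1 are high in libraries 2 and 4 and Ttr in 1 and 3, library 3 is highest for Cdh5 and Tal1, and Frzb, Foxa2, Sox11 and Krt18 lie close together in all 4.

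To ask whether loss of RCOR1 alone alters differentiation, the change from ESC to EB was then compared with that of WT cells, in a fit of 6 groups in which all libraries were scaled together. No gene passed the test: 0 of 17582 (0%) were called, the smallest adjusted p was 0.319, and 1457 genes (8.29%) had an unadjusted p below 0.05. DESeq2 called 13 genes, 6 with a more positive and 7 with a more negative change in RCOR1 KO. The median absolute difference was 0.21 log2 units with a median SE of 0.27, and for 84.7% of the genes the difference was under 1 log2 unit. A call needs more than 1 log2 unit, so smaller differences would not be called. In this fit 3731 genes rose and 2881 fell in WT cells, beside 3534 and 2656 in RCOR1 KO cells. Across genes, which are not independent replicates, the log2 fold changes of the 2 genotypes correlated with a Pearson r of 0.906 and a Spearman rho of 0.901.

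Marker levels in WT cells overlapped those in RCOR1 KO cells. Esrrb ranged from 534 to 709 CPM (median 610) in WT ESCs and from 0.261 to 7.66 CPM (median 3.75) in WT EBs, and its change differed from that of RCOR1 KO by 0.63 ± 0.53 (unadjusted p = 0.245, edgeR adjusted p = 0.802). Hand2 ranged from 0.0594 to 0.573 CPM (median 0.174) in WT ESCs and from 18.6 to 123 CPM (median 73.6) in WT EBs, with a difference of -0.12 ± 0.96 (adjusted p = 1). By lists, the median difference of RCOR1 KO from WT in the fit of 6 groups was 0.56 for naive pluripotency, -0.07 for cardiac factors, -0.50 for endoderm factors, 0.66 for germline genes and 0.10 for imprinted genes. The lists with the highest shares of members at an unadjusted p below 0.05, beside 8.29% of all genes, were formative and primed epiblast (5 of 11, median difference -0.38), neural crest (3 of 9, -0.46), hypoxia and glycolysis (5 of 20, -0.35) and FGF and ERK feedback (3 of 12, -0.31). None of these members passed the test of the difference after adjustment. WT ESC libraries varied widely for some genes of these lists. Bnip3 was at 14.7 to 118 CPM in WT ESCs and 101 to 119 CPM in RCOR1 KO ESCs. Etv4 was at 3.81 to 54.8 and 47.8 to 71.1 CPM, and Otx2 at 6.24 to 32.6 and 4.62 to 10.5 CPM. WT ESC libraries 8 and 9 held Bnip3 at 91.3 and 118 CPM and Etv4 at 54.8 and 53.3 CPM. The part of this spread in the shares was not tested. Foxa1 and Acta2 were among the genes with small unadjusted p. Foxa1 had a difference of -1.90 ± 0.41 (unadjusted p = 6.69e-05, adjusted p = 0.319), with 31.6 to 54.7 CPM in WT EBs and 37.5 to 49.8 CPM in RCOR1 KO EBs but 0 to 0.236 CPM and 0.228 to 0.646 CPM in the ESCs. Acta2 had a difference of -4.73 ± 1.13 (unadjusted p = 0.000238, adjusted p = 0.319), and its ESC level was at most 0.382 CPM in WT and 0.514 to 15.3 CPM in RCOR1 KO. These examples were chosen after their values were seen and none passed the test. H19 in WT EBs ranged from 76.2 to 370 CPM (median 114), above RCOR1 KO EB libraries 1 and 3, below library 2 and around library 4.

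Against the RCOR1/2 DKO cells, the change from ESC to EB differed for many genes: for 1680 genes (9.56%) it was more positive in RCOR1 KO and for 1637 genes (9.31%) more negative. In this fit of 6 groups 2289 genes rose and 1407 fell in RCOR1/2 DKO cells. Rcor2 was at 2.02 to 4.89 CPM in the RCOR1/2 DKO libraries and Rcor1 at 2.24 to 6.59 CPM. Pluripotency markers stayed higher in RCOR1/2 DKO EBs. Pou5f1 was at 394 to 435 CPM in RCOR1/2 DKO ESCs and 333 to 389 CPM in the EBs, and the difference of the changes was -4.57 ± 0.51 (edgeR adjusted p = 3.24e-08). Esrrb was at 459 to 535 CPM and 104 to 147 CPM (difference -4.73 ± 0.60, adjusted p = 3.8e-07), and Nanog at 1030 to 1190 CPM and 289 to 334 CPM (-2.85 ± 0.62). Nr0b1 was at 15.4 to 19.1 CPM and 17.3 to 21.1 CPM (-7.24 ± 0.45), and Dnmt3l at 200 to 221 CPM and 139 to 153 CPM (-5.42 ± 0.74). For these 5 genes RCOR1 KO EBs overlapped the WT EB range, and every RCOR1/2 DKO EB library was above every RCOR1 KO EB library. Of the 17 naive pluripotency genes, 14 fell more in RCOR1 KO and 1 had a more positive change, Tbx3 (3.52 ± 0.62), which was at 8.29 to 16.5 CPM in RCOR1/2 DKO EBs.

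Differentiation genes differed the other way. Hand2 was at 0.167 to 0.532 CPM in RCOR1/2 DKO ESCs and 0.158 to 0.270 CPM in the EBs, so the rise seen in RCOR1 KO had no counterpart there (difference 8.90 ± 1.12, edgeR adjusted p = 2.73e-07). Hand1 was at 4.19 to 7.35 CPM in RCOR1/2 DKO ESCs and 1.53 to 2.24 CPM in the EBs (12.61 ± 1.07, adjusted p = 2.75e-10). Frzb was at 0.844 to 1.56 CPM in those EBs (11.45), Cyp26a1 at 0.227 to 0.685 CPM (11.43 ± 0.90), Sox17 at 0.405 to 0.738 CPM (8.48 ± 0.56) and Igf2 at 5.31 to 9.46 CPM (7.32 ± 0.50). Every RCOR1 KO EB library was above every RCOR1/2 DKO EB library for these 6 genes. Frzb, Fgf16, Tph1 and Tdo2 had no count in RCOR1 KO ESCs, so their fitted differences are not bounds. Other genes with the largest positive differences were Fgf16, a heart FGF (12.68), Kcnk16, a potassium channel (11.30), Prdm6, a smooth muscle factor (10.88), Tph1 (10.86) and Tdo2, a tryptophan oxygenase (14.50), whose call rests on few counts and was lost without RCOR1/2 DKO ESC library 2 (13.44, adjusted p = 0.01). Of 12 cardiac factors 11 had a more positive change in RCOR1 KO and none a more negative change, and of 10 endoderm factors 9 and none. Of 12 BMP genes the counts were 10 and none, and of 18 imprinted genes 8 and 2, with Grb10 at a difference of 4.71.

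Among the genes with the most negative differences, Zscan4c, of the cleavage stage, was at 0.0587 to 0.856 CPM in RCOR1 KO ESCs and had no count in the 4 EB libraries. In RCOR1/2 DKO cells it was at 1.61 to 3.08 CPM in ESCs and 18.3 to 28.2 CPM in EBs (difference -10.55 ± 1.41, edgeR adjusted p = 1.15e-06, a fitted value that is no bound). Zscan4d (-9.92), Usp17le (-9.62), Usp17lb (-8.62) and Pramef25 (-8.58) followed, all from families of near-identical copies whose counts are uncertain. The testis histone genes H2bc1 (-9.98 ± 0.75) and H2ac1 (-9.93 ± 0.78) and the cancer testis gene Ct55 (-8.77 ± 1.51) were also among them. H2bc1 was at 3.59 to 5.95 CPM in RCOR1/2 DKO ESCs and 14.0 to 21.2 CPM in their EBs, and at 1.54 to 3.58 CPM and at most 0.0251 CPM in RCOR1 KO. Of 14 germline genes, 10 had a more negative change in RCOR1 KO and none a more positive change.

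Fgf5 and Otx2 did not pass the test of a difference between RCOR1 KO and RCOR1/2 DKO. Fgf5 rose in both, to 45.7 to 60.2 CPM in RCOR1/2 DKO EBs (difference 1.51 ± 1.23, edgeR adjusted p = 0.352), and Otx2 likewise (0.93 ± 0.65, adjusted p = 0.265). Of 11 formative and primed genes, none had a more positive change in RCOR1 KO and 6 a more negative change. Lin28a rose in both genotypes, but less in RCOR1 KO (difference -1.91 ± 0.17), starting at 51.0 to 59.5 CPM in RCOR1/2 DKO ESCs. Rcor3, the remaining scaffold gene of the family, was at 6.85 to 9.80 CPM in RCOR1/2 DKO ESCs and 4.92 to 6.30 CPM in their EBs, the reverse of its order in RCOR1 KO (difference 1.45 ± 0.17, adjusted p = 1.02e-07). The WT and RCOR1/2 DKO comparisons used the same RCOR1 KO libraries.

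**Figure D4:**
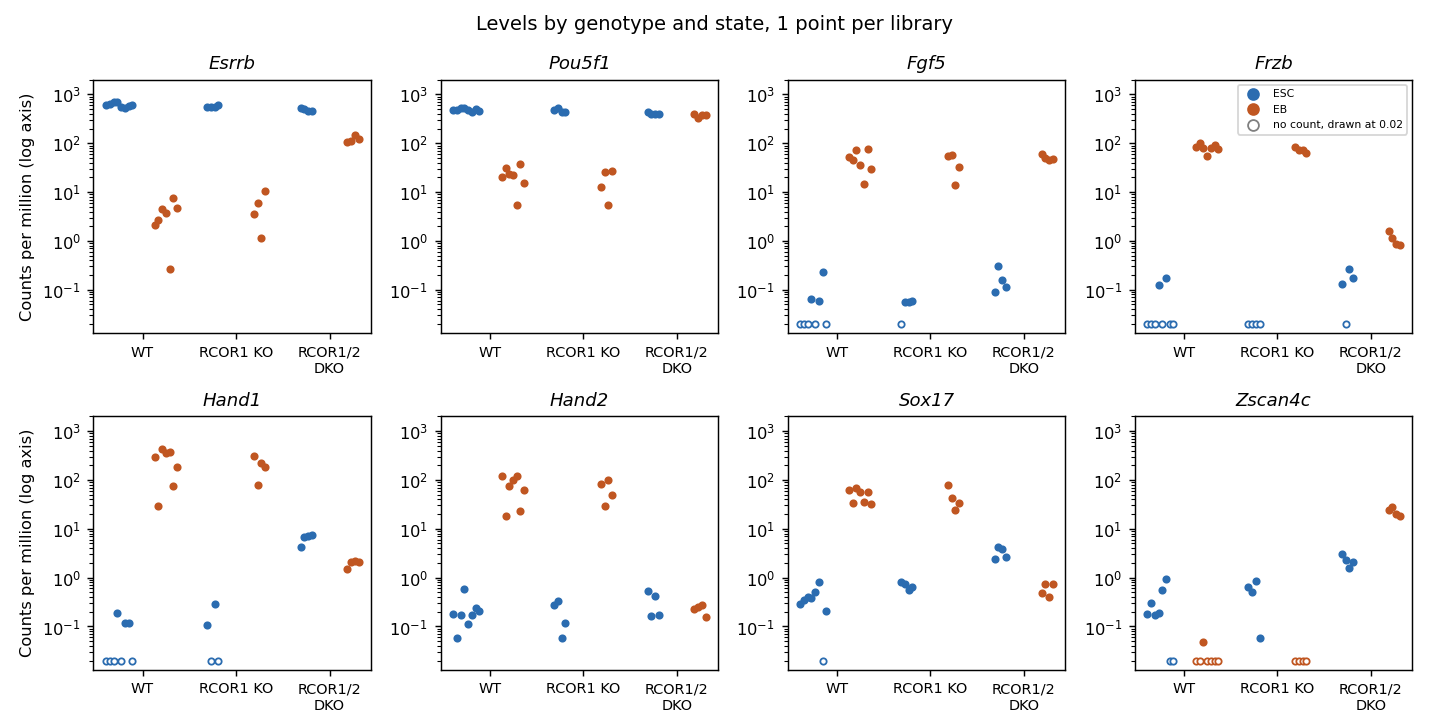
CPM on a log axis of 8 genes in WT, RCOR1 KO and RCOR1/2 DKO cells, 1 point per library, ESCs in blue and EBs in orange; open points had no count and are drawn at 0.02 CPM. RCOR1 KO EBs overlap WT EBs for each gene shown, while RCOR1/2 DKO EBs keep Esrrb at 104 to 147 CPM and Pou5f1 at 333 to 389 CPM and hold Hand2 at or below 0.270 CPM.

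**Figure D5:**
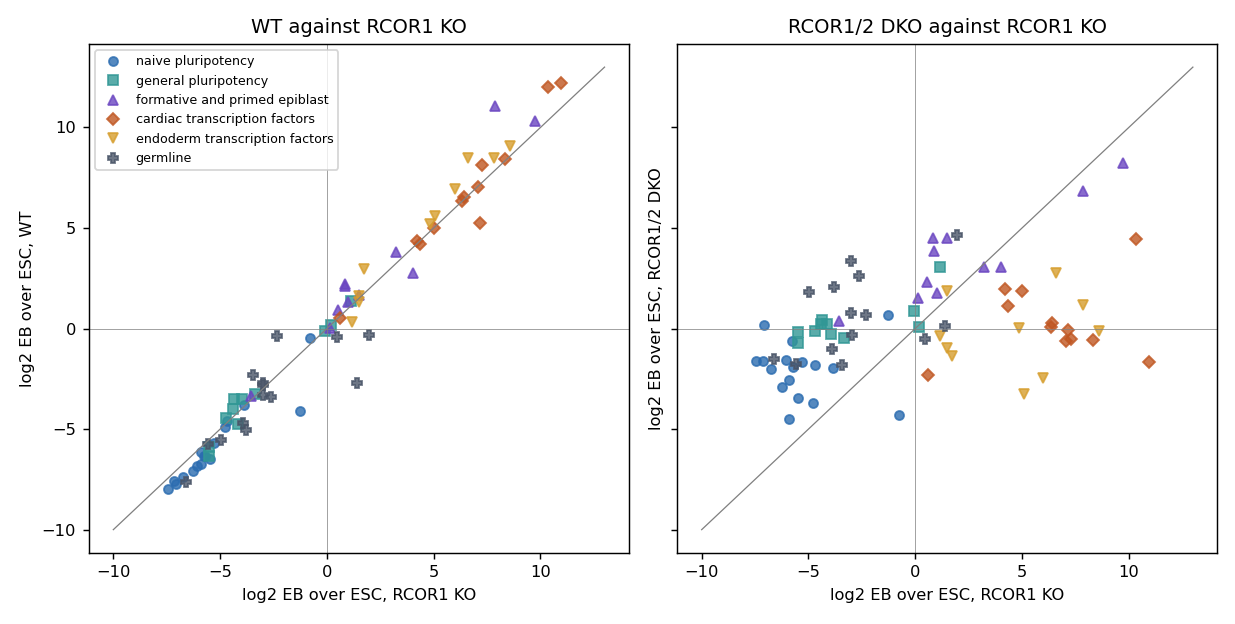
Log2 fold change of EBs over ESCs in WT (left) and RCOR1/2 DKO (right) against that in RCOR1 KO, 1 point per gene of 6 lists; the grey line marks equal change. Points lie along the line for WT, with no gene called different, whereas for RCOR1/2 DKO most cardiac and endoderm factors lie below it and most naive pluripotency and germline genes above it.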

How the data were processed

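Directional, rRNA-depleted RNA-seq libraries were sequenced by the authors. The submitters' processing notes name STAR 2.7.9a, Picard 2.25.5 (duplicates were removed) and deepTools 3.5.1 on mm9, and the methods state reverse-stranded counting with featureCounts. The deposited values are raw counts per gene for 25209 symbols. Among low counts in the RCOR1 KO libraries, with single counts and high counts left out, 75.7% to 77.7% were even numbers. Mates thus appear to have been counted separately, and counts exceed fragments. Removing duplicates limits the counts of very abundant genes.

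The members, gene lists and alternatives were chosen with earlier results of these data known. Libraries were grouped by their labels. Counts were fitted with edgeR 4.0.16 (R 4.3.3): TMM scaling, filterByExpr with a minimum count of 10, robust quasi-likelihood F tests, two-sided, Benjamini-Hochberg adjustment over all genes tested in a comparison. Calls needed an adjusted p under 0.01 together with a change of more than 1 log2 unit either way. RCOR1 KO EBs and ESCs were fitted alone, and differences in differentiation were tested as interactions in a fit of 6 groups (WT, RCOR1 KO and RCOR1/2 DKO). WT ESC libraries 1 to 3, with no count on unplaced contigs, were left out. CPM are on TMM-scaled library sizes, means are given with the SD and fold changes with the SE. Statistics were tested on simulated data.

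Genes were named by rule: Esrrb, Hand2, Rcor1, Rcor2, Rcor3 and Kdm1a, then the 12 called risers and 12 called fallers of greatest fold change (mean of 5 CPM or more in 1 state, libraries of the states not overlapping), per list up to 5 called members in each direction by adjusted p and 3 others by level, and for each difference up to 8 genes in each direction. A few genes that the rule names are not reported here. Genes named outside this rule were chosen after their values were seen. Alternatives were DESeq2 1.42.0, its size factors, no filter, halved counts, Rn45s left out, a fit of 6 groups, the replicate number as a block, other WT libraries, and each library left out. Replicate numbers did not pair the samples (correlations of same-numbered ESC and EB deviations 0.074, 0.064, -0.012 and 0.063). No pair of libraries agreed within counting noise (chi-square per gene 6.86 to 47.9 on halved counts). Promoter sequences came from RefSeq (GRCm38.p6), gene coordinates from the mm9 annotation.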

Additional observations from a re-analysis of the deposited data

Results flagged for a closer look

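Of 100 groups of 4 libraries whose levels were screened, 8 held a library that stood apart from the other 3 by Dixon's test at the 95% level, and chance flags about 1 in 20 groups. In RCOR1 KO EBs, library 3 stood apart for Ttn at 262 CPM and for Cdh5 at 32.6 CPM. In RCOR1 KO ESCs, library 4 stood apart for Esrrb at 593 CPM and for Foxa2 at 0.116 CPM, library 3 for Cer1 and for Cyp26a1 at 0.0559 CPM each, and library 1 for Cdh5 at 0.160 CPM and for Fgf5 at 0. Of these, the ESC levels of Cer1, Cyp26a1, Fgf5, Cdh5 and Foxa2 rest on few counts.

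The change from ESC to EB differed between RCOR1 KO and RCOR1/2 DKO in the interaction test for 1680 genes with a more positive and 1637 genes with a more negative log2 fold change in RCOR1 KO. More positive were Tdo2 (by 14.50 log2 units), Fgf16 (12.68), Hand1 (12.61), Frzb (11.45), Cyp26a1 (11.43), Kcnk16 (11.30), Prdm6 (10.88), Tph1 (10.86), Hand2 (8.90), Sox17 (8.48), Igf2 (7.32), Grb10 (4.71), Tbx3 (3.52) and Rcor3 (1.45). More negative were Zscan4c (-10.55), H2bc1 (-9.98), H2ac1 (-9.93), Zscan4d (-9.92), Usp17le (-9.62), Ct55 (-8.77), Usp17lb (-8.62), Pramef25 (-8.58), Nr0b1 (-7.24), Dnmt3l (-5.42), Esrrb (-4.73), Pou5f1 (-4.57) and Nanog (-2.85).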

How the results depend on the processing

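With the 8 RCOR1 KO libraries, the count of 5700 genes called was 6395 with DESeq2, 5692 with its size factors, 6146 with no filter, 5338 with halved counts, 5703 without Rn45s, 6190 in the fit of 6 groups and 5627 to 5893 with a library left out. DESeq2 called 5688 of the same 5700 genes. The median log2 fold change of all genes tested, 0.03, lay between 0 and 0.11 under these alternatives. With the replicate number as a block 5485 genes were called (3209 higher, 2276 lower), and the difference from RCOR1/2 DKO gave 3657 (1791 more positive, 1866 more negative) in a fit of those 2 genotypes. The numbers do not pair the samples, and no ESC library correlated best with the EB library of its number. The highest correlation was with EB library 3 for ESC library 1 (0.101) and EB library 4 for ESC library 2 (0.08). For ESC library 3 it was with EB library 1 (0.062) and for ESC library 4 with EB library 2 (0.075). With libraries 1 and 3 against 2 and 4 as a term, chosen after seeing the data, 5724 genes were called. For the difference from WT, DESeq2 called 13 genes (6 more positive, 7 more negative), and edgeR called 0 with all 11 WT ESC libraries, with WT ESC libraries 8 and 9 and WT EB libraries 6 and 7, with the 2 genotypes alone and with each RCOR1 KO library left out. For the difference from RCOR1/2 DKO the count of 3317 was 3735 with DESeq2, 3960 with the 2 genotypes alone and 2999 to 3265 with a library left out. Of the values of named genes under these alternatives, 5473 kept their direction and side of the threshold, 84 lost a call and 34 gained one, and none changed direction while called. Of the counts of lists, 1169 stayed within 1.5 times and 55 did not. The cause of these changes was not tested. At this depth, genes under the filter on low counts were not tested.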

Other observations

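Further members of the lists, chosen after their values were seen, showed how unevenly early lineage genes rose over the RCOR1 KO EB libraries. T (Brachyury), the T-box factor of the primitive streak, was at 0.830 to 1.28 CPM in ESCs and at 16.8, 121, 63.4 and 117 CPM in EBs (log2 fold change 6.23 ± 0.63, edgeR adjusted p = 1.25e-05). EB library 1 was thus the lowest for T. Evx1, a homeobox factor of the posterior streak, was at 31.1, 12.0, 5.13 and 8.64 CPM in EBs (5.66 ± 0.89, adjusted p = 0.000264), and Mesp1, which marks early cardiac mesoderm, at 11.8, 6.06, 1.78 and 4.22 CPM (5.89 ± 0.76, adjusted p = 5.76e-05). Library 1 was the highest for both. Shh, the signalling protein of notochord and floor plate, was at most 0.116 CPM in ESCs and at 2.59, 38.5, 45.1 and 51.0 CPM in EBs (8.63 ± 1.06, adjusted p = 4.89e-05), with library 1 far below the others. Gata4, a factor of endoderm and heart, was at 161, 60.0, 73.1 and 67.5 CPM in EBs (5.03 ± 0.36, adjusted p = 1.1e-06).

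Among imprinted genes, Peg10 was at 14.1, 38.5, 13.8 and 41.0 CPM in ESCs and at 2350, 1990, 1450 and 2190 CPM in EBs (log2 fold change 6.21 ± 0.44, edgeR adjusted p = 1.09e-06). Its ESC levels were higher in libraries 2 and 4 than in 1 and 3. Zim1 was at 48.3, 17.3, 61.5 and 18.8 CPM in EBs, and Dlk1, a transmembrane ligand, at 24.4, 4.67, 61.9 and 9.71 CPM, both higher in libraries 1 and 3. Meg3, a noncoding RNA from the same cluster as Dlk1, rose 1.96 ± 0.18 on the log2 scale, and its change was not called different from that in RCOR1/2 DKO (difference -0.98 ± 0.34, adjusted p = 0.0229). Id2, a target of BMP signalling, was at 62.7, 33.8, 70.0 and 33.7 CPM in RCOR1 KO EBs and at 11.7 ± 4.19 CPM (SD, n = 4) in RCOR1/2 DKO EBs (difference of the changes 3.74 ± 0.53, adjusted p = 1.71e-06).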
